A study of Mus musculus with 3 samples.

Results

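The cells described here were the *Cyp17a1*-high cells of a mouse ovary single-cell RNA-seq table, that is, cells carrying the transcript of the enzyme that defines androgen-making theca cells. Of 31776 cells, 1317 were chosen (4.14%, exact 95% interval 3.93 to 4.37%). They were chosen by their deposited *Cyp17a1* value, ln(1 + x), in which x is RNA molecules (UMIs, unique molecular identifiers) per 10000 of the cell, at 2.5 or above, which is 11.2 UMIs per 10000. At least 2 of *Aldh1a1*, *Insl3*, *Mgarp*, *Hsd3b1* and *Star* had to be above 0, and *Ptprc*, the leukocyte antigen CD45, and *Pecam1*, the endothelial antigen CD31, had to be 0. These 8 genes were the values the cells were selected on, so their values are given below only as a description.

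The study collected whole mouse ovaries 0, 1 and 6 h after an injection of human chorionic gonadotropin (hCG), which acts on the receptor of luteinizing hormone, and sequenced 1 droplet library per time point on the 10X Chromium platform. Its methods name the Kunming strain for mouse work other than the knockouts and describe mice 21 days old for single-cell sequencing, taken 48 h after priming with pregnant mare serum gonadotropin (PMSG). They do not mention hCG for these ovaries, and no transgene or deletion was named for any of the 3 groups. How many animals were pooled in a library was not given in the sources used here. Cell barcodes end in 1, 2 or 3 and so form 3 sets of 10384, 9917 and 11475 cells, and the labels name the libraries of 0, 1 and 6 h SAMPLES1, SAMPLES2 and SAMPLES3. No source says that a barcode's ending is the number in a library's name, so the sets were not tied to time points and are compared as sets, without a time or an order. Each set stands for 1 library at most, cells are not replicates, and no test between sets is possible: the intervals below are 95% counting intervals, and a difference between sets cannot be told apart from any other difference between libraries.

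Theca cells surround the follicle outside its basement membrane and answer luteinizing hormone through LHCGR and cyclic AMP. They move cholesterol into mitochondria with STAR, cut it to pregnenolone with CYP11A1 and its electron donors ferredoxin (*Fdx1*) and ferredoxin reductase (*Fdxr*), and turn it into androgens with HSD3B1 and CYP17A1, which draws electrons from *Por*. Granulosa cells inside the follicle convert these androgens to estrogens with CYP19A1, and after ovulation both cell types contribute to the corpus luteum. INSL3 is a peptide hormone of theca cells. Interstitial steroid-making cells of the ovary share many of these genes, and position in the tissue was not measured here.

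Set 1 held 722 *Cyp17a1*-high cells, 6.95% of its cells (6.47 to 7.46%). Their number was 390 in set 2, 3.93% (3.56 to 4.33%), and 205 in set 3, 1.79% (1.55 to 2.05%). The intervals of the 3 sets did not overlap. Because the gate reads *Cyp17a1*, a lower share can come from fewer such cells or from less *Cyp17a1* RNA per cell, which these counts cannot tell apart. Of the 1366 cells at 2.5 or above, 14 had too few companion genes and 35 held *Ptprc* or *Pecam1*. Among those kept, 344 cells had all 5 companions, 707 had 4, 233 had 3 and 33 had 2. No barcode was shared between sets among the chosen cells, against 27, 46 and 39 barcodes shared over all cells by sets 1 and 2, 1 and 3, and 2 and 3.

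The threshold cut through a continuum. The 94 chosen cells nearest to it, with *Cyp17a1* from 2.5 to under 2.75, had a median of 29.5 UMIs per 10000 for *Hsd3b1*, 44.9 for *Cyp11a1*, 14.2 for *Aldh1a1* and 25.4 for *Fdx1*. The 128 cells just outside, from 2.25 to under 2.5, had medians of 34.1, 51.3, 14.9 and 27.5 for the same genes. Within sets 1 and 3 the medians of all 4 genes were higher just outside. Within set 2 this held for *Cyp11a1* and *Fdx1*, while *Hsd3b1* was at 25.8 outside against 33.4 inside and *Aldh1a1* at 10.4 against 11.6.

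Depth differed between these cells and the rest of the table. Median UMIs per cell were 12401, 10961 and 11107 for sets 1, 2 and 3, against 5818.5, 6247 and 6469.5 in the other cells, and 13, 20 and 2 of them had under 3000 UMIs. Levels are therefore given below as a gene's summed UMIs per 10000 summed UMIs of a group, always for sets 1, 2 and 3 in that order, and shares of cells with a UMI were taken after each cell was thinned to 3000 UMIs. No doublet caller was run. Leaving out the 10% of these cells with the most UMIs, or with the most granulosa marker UMIs, kept every count of genes called in the 5 comparisons below within 1.5 times.

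Markers of other cell types were checked as whole lists. The 12 granulosa markers summed to 19, 26.4 and 19.1 in the *Cyp17a1*-high cells, against 144, 146 and 58.4 in granulosa-marker cells (at least 4 of 6 of *Inha*, *Amh*, *Fst*, *Serpine2*, *Gatm* and *Nr5a2* above 0, and low *Cyp17a1*). Most of this sum was *Inha*, the inhibin alpha subunit, at 12.8, 16.1 and 16.8, while endothelial cells (*Pecam1* and *Cdh5* above 0), which should lack it, were at 4.1, 4.65 and 4.01 and leukocytes (*Ptprc* and *Tyrobp* above 0) at 16.8, 5.85 and 7.24. Stroma markers such as *Dcn* and *Lum*, both matrix proteoglycans, summed to 13.2, 14.9 and 9.65, against 85.3, 96.3 and 62.4 in stroma-marker cells (at least 3 of 5 of *Pdgfra*, *Dcn*, *Lum*, *Col1a1* and *Col1a2* above 0, with *Inha* and *Amh* at 0). Both comparison groups were chosen on genes of these same lists, which fixes part of the gap. All other cells were at 75.2, 82.3 and 31 for the granulosa list and 24.4, 30.6 and 26.8 for the stroma list. Cells with *Cyp17a1* below 2.5 and at least 3 of the 5 companion genes were at 104, 138 and 45.7 and at 9.74, 11.7 and 11.9. Smooth muscle and pericyte markers reached 1.12, 1.79 and 2.74, endothelial markers 0.321, 0.536 and 0.344, myeloid markers 0.129, 0.159 and 0.0778, epithelial markers 0.0439, 0.0741 and 0.18, oocyte markers 0.0178, 0.0327 and 0.0205 and erythroid markers 0.047, 0.0392 and 0.0246. The 6 luteal markers, which include *Cyp11a1* and *Lhcgr* of theca cells, summed to 88.7, 75.9 and 114, against 15.4, 12.7 and 14.8 in granulosa-marker cells and 17.8, 10.6 and 14.3 in all other cells, and most of this sum was *Cyp11a1*, at 75, 62.6 and 96.8. The theca markers *Cyp17a1*, *Insl3*, *Aldh1a1* and *Mgarp* were all read by the rule and so give no check of the name theca, and the cells are called *Cyp17a1*-high below. *Pecam1* and *Ptprc* stood at 0 by the rule. Of the egg coat genes, *Zp3* was at 0 in every set and *Zp2* in sets 1 and 3 only.

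As a gauge of RNA that floats free of its cell, levels in 436, 639 and 371 endothelial cells (*Pecam1* and *Cdh5* above 0) are set beside those of the *Cyp17a1*-high cells where they matter, and a level at or below theirs is read as background for genes that endothelial cells should lack. *Cyp19a1*, aromatase of granulosa cells, was at 0.0992, 0.606 and 0.0041 with a UMI in 2.96%, 11.4% and 0.493% of thinned cells, beside 0.115, 0.464 and 0.0037 in endothelial cells, and was 2.04, 4.8 and 0.0962 in granulosa-marker cells. The thinned shares with *Amh* were 0.423%, 0.541% and 0.493%, and with *Fshr*, the receptor of follicle-stimulating hormone, 1.27%, 1.62% and 0%. *Hsd17b1* (0.601, 0.597 and 0.111) and *Inhba* (2.24, 3.78 and 0.246) stayed far below granulosa-marker cells (7.71, 5.59 and 1.29 and 30.3, 34.1 and 2.49). Proliferation was low: *Mki67*, a marker of cycling cells, had a UMI in 1.97%, 2.43% and 1.48% of thinned *Cyp17a1*-high cells, beside 13.8%, 8.54% and 11% of endothelial cells.

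The genes of the rule differed between sets although every chosen cell passed the same gate. *Cyp17a1* itself had a median of 49.3, 45.3 and 29.8 UMIs per 10000 per cell, with 90th percentiles of 136, 127 and 68.1. Its summed level was 67.6, 64.4 and 34.7. *Aldh1a1*, a retinaldehyde dehydrogenase, was at 27.5, 16.2 and 12.7, and *Hsd3b1* at 41.2, 30.3 and 17.3. All 3 were lowest in set 3.

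*Insl3* separated the sets further. Its level was 1.4 (1.32 to 1.47), 0.527 (0.463 to 0.598) and 0.213 (0.159 to 0.279). Without thinning it had a UMI in 65%, 26.4% and 18.5% of the cells. At 3000 UMIs per cell it was seen in 31.5% (28 to 35%), 10.0% (7.14 to 13.5%) and 2.96% (1.09 to 6.32%), and in 0.513%, 0% and 0.323% of endothelial cells. Thus most of these cells in every set showed no *Insl3* at this depth. *Mgarp*, a mitochondrial protein rich in steroid-making cells, was not lowest in set 3, at 8.24, 7.23 and 9.86. *Star* had a UMI in 20.2% (17.3 to 23.3%), 94.3% (91.5 to 96.5%) and 97.5% (94.3 to 99.2%) of thinned cells, and endothelial cells stood at 2.05%, 13.6% and 13.9%. The dot plot of single cells shows this as a set 1 median at 0 for *Star* and medians above 3 on the natural log scale in the other sets.

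**Figure D1:**
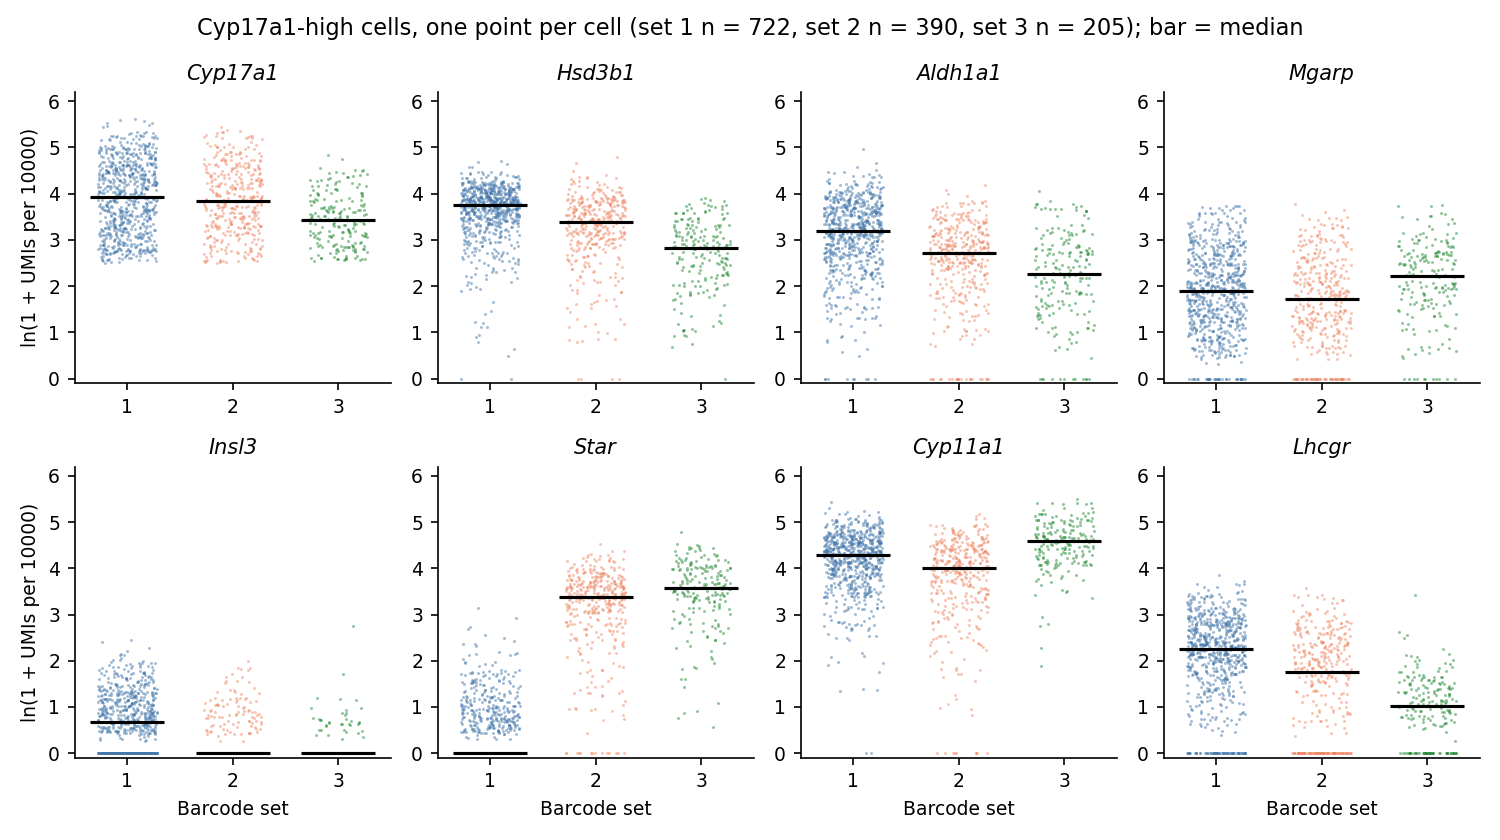
Deposited values (y axis, natural log of 1 plus UMIs per 10000, not thinned) of 8 genes in each *Cyp17a1*-high cell, by barcode set (x axis: 722, 390 and 205 cells); bars are medians. *Star* lies near 0 in set 1 and high in sets 2 and 3, *Insl3* and *Lhcgr* are highest in set 1, and the lower edge of *Cyp17a1* at 2.5 is set by the rule.

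Comparisons across genes used levels over all cells of a group. A gene was called higher or lower when it differed by at least 2-fold with a counting interval that excluded 1, among genes whose 2 levels averaged at least 0.1. Between sets 2 and 1 of the *Cyp17a1*-high cells 7549 genes passed this minimum, of which 472 (6.25%) were higher and 1113 (14.7%) lower in set 2. Set 3 against set 2 had 1360 (18.4%) higher and 664 (9%) lower of 7378. Set 3 against set 1 had 700 (8.86%) higher and 921 (11.7%) lower of 7903. The median log2 ratio of all genes was -0.40, 0.28 and -0.11 in these comparisons, so a gene at the median already leaned lower in set 2 against set 1 and higher in set 3 against set 2. The counts of each gene list below are to be read against these shares. The counting intervals take molecules as independent, and they are too narrow where few cells hold most of a gene's UMIs.

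Steroid synthesis genes did not move as a block. Of 17 listed enzymes and electron donors measured, 4 were higher and 1 lower in set 2 than in set 1, 2 higher and 4 lower of 18 in set 3 than in set 2, and 5 higher and 4 lower of 17 in set 3 than in set 1. Median log2 ratios were -0.21, 0.23 and 0.02, against -0.40, 0.28 and -0.11 over all genes. The 4 higher in set 2 than in set 1 were *Star*, *Fdx1*, *Por* and *Cyp19a1*. The last stood near endothelial cells above, with 82.4% of its set 2 UMIs in the 39 highest cells. *Cyp19a1* and *Hsd17b1*, genes of granulosa cells, are among the 4 lower in set 3 than in set 2. *Star*, at the entry of cholesterol into mitochondria, is a companion gene of the rule, so its values are a description. It was 24.1-fold (22.7 to 25.6) higher in set 2 than in set 1, at 1.23, 29.7 and 38. *Fdx1* was at 25.3, 88.6 and 64.4, 3.51-fold (3.45 to 3.57) higher in set 2 than in set 1. *Cyp11a1*, which takes the electrons of ferredoxin, stood at 75, 62.6 and 96.8 and was within 2-fold between all sets. *Fdxr* was at 3.3, 1.94 and 3.06, likewise within 2-fold.

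Later steps showed other patterns. *Hsd3b1* was 2.39-fold (2.31 to 2.46) lower in set 3 than in set 1. *Akr1cl*, an aldo-keto reductase gene, was at 75.9, 47.5 and 19 and 4.0-fold (3.88 to 4.12) lower in set 3 than in set 1. *Por* was 3.04-fold (2.8 to 3.3) higher in set 2 than in set 1 (1.04, 3.17 and 2.28). *Cyb5a*, which helps CYP17A1 make androgens, was at 4.12, 4.2 and 6.26 and within 2-fold, beside 4.09, 4.61 and 3.03 in endothelial cells and 6.7, 4.07 and 3.43 in leukocytes, and was higher in granulosa-marker cells (21.9, 22.8 and 9.87). *Cyp11b1*, known as the adrenal 11-beta-hydroxylase, was near 0 in sets 1 and 2 and at 1.25 (1.12 to 1.4) in set 3, 52.3-fold (28.8 to 106) above set 2. Only 18 of 203 set 3 cells with 3000 UMIs or more held it at 5 UMIs per 10000 or above, and 63 held any. It shares close sequence with *Cyp11b2*, and how the alignment divided reads between the pair was not tested.

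**Figure D2:**
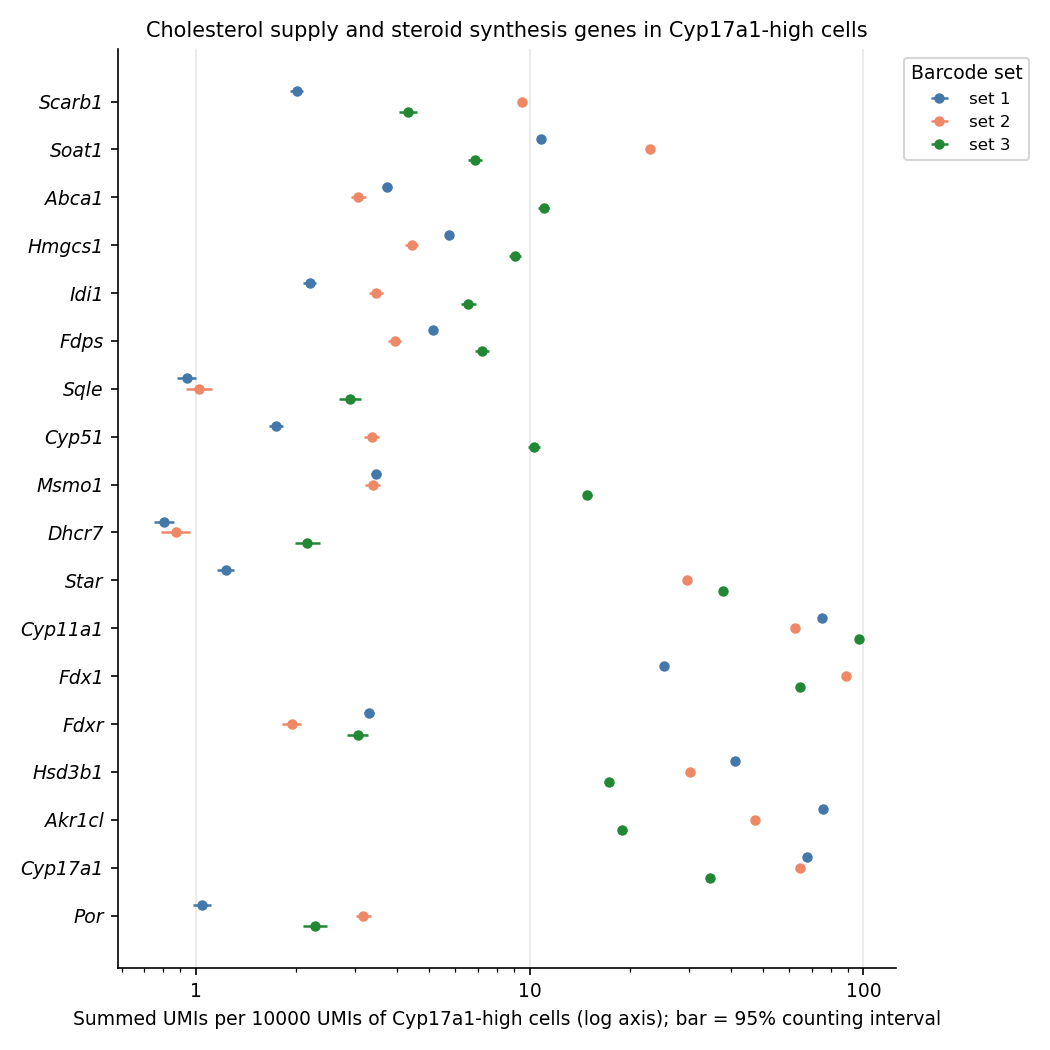
Summed UMIs per 10000 (x axis, log scale) of cholesterol supply and steroid synthesis genes (y axis) in the *Cyp17a1*-high cells of each barcode set; bars are 95% counting intervals. *Star* differs most between set 1 and the other sets, the synthesis genes *Hmgcs1* to *Dhcr7* are highest in set 3, and *Hsd3b1*, *Akr1cl* and *Cyp17a1* are lowest there.

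Genes of cholesterol supply split by source. Of the 19 synthesis genes, set 3 had 13 higher and 0 lower than set 2 (median log2 ratio 1.31), and 10 higher and 0 lower than set 1 (1.01), while set 2 against set 1 had 1 higher and 4 lower (-0.37). *Msmo1*, a sterol methyl oxidase, was at 3.47, 3.39 and 14.9, 4.4-fold (4.14 to 4.67) higher in set 3 than in set 2. *Cyp51*, the lanosterol demethylase, was at 1.74, 3.36 and 10.3, 3.06-fold (2.88 to 3.27) higher. *Sqle*, squalene epoxidase, was at 0.939, 1.03 and 2.9. These values describe a list highest in set 3 in most of its genes.

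Uptake and storage genes had counts of their own. Of 16 genes for uptake, storage and transport, 2 were higher and 2 lower in set 2 than in set 1, 2 and 2 in set 3 than in set 2, and 4 higher and 1 lower of 18 in set 3 than in set 1. Over all genes tested 6.25% were higher and 14.7% lower in the first of these comparisons, and the list's median log2 ratio between sets 3 and 2 was 0.26, beside 0.28. *Scarb1*, the receptor for high-density lipoprotein, was at 2.01, 9.49 and 4.33, 4.72-fold (4.47 to 4.98) higher in set 2 than in set 1 and 2.19-fold (2.05 to 2.35) lower in set 3 than in set 2. *Soat1*, which esterifies cholesterol for storage, was also highest in set 2, at 10.9, 22.9 and 6.86, but lower in set 3 than in set 1, while *Scarb1* was higher there. *Abca1*, a cholesterol exporter, was at 3.74, 3.07 and 11, 3.59-fold (3.36 to 3.83) higher in set 3 than in set 2.

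Some of these set differences changed with the gate. Cells taken by at least 4 of the 5 companion genes alone, whatever their *Cyp17a1*, numbered 1081, 1328 and 1221 in sets 1, 2 and 3. This gate both leaves out *Cyp17a1* and asks for more companion genes, which cannot be told apart here, and as *Star* is a companion gene found in few cells of set 1, the numbers per set depend on it. These cells had *Star* 8.43-fold and *Fdx1* 3.18-fold higher in set 2 than in set 1. *Scarb1* was 1.82-fold and *Soat1* 1.88-fold, under the 2-fold called. *Cyp51* was 1.79-fold and *Hmgcs1* 1.6-fold higher in set 3 than in set 2, also under it, and *Msmo1* 3.71-fold. Between sets 3 and 1 *Scarb1* turned over, from 2.15 in *Cyp17a1*-high cells to 0.722.

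The set differences were compared with those of other cells of the same libraries. In granulosa-marker cells *Star*, which the rule did not read in them, was at 0.53, 4.06 and 5.91. *Scarb1* had a set 2 to set 1 ratio of 1.7 there, 2.78 (2.62 to 2.96) times smaller than in *Cyp17a1*-high cells. *Fdx1* went the other way: its set 2 to set 1 ratio was 6.41 in granulosa-marker cells, and the *Cyp17a1*-high ratio was 0.547 (0.536 to 0.56) of it. In set 3 *Fdx1* was 4.45-fold lower than in set 2 in granulosa-marker cells and within 2-fold in *Cyp17a1*-high cells. *Cyp51* was 1.18 times its set 2 level in set 3 of granulosa-marker cells, so the *Cyp17a1*-high ratio was 2.59 (2.4 to 2.79) times as large, whereas *Msmo1*, at 5.59 there, differed the other way, with a ratio of ratios of 0.786 (0.735 to 0.841). The synthesis genes were therefore not uniformly more set 3-biased in the *Cyp17a1*-high cells.

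Genes listed as responding to hCG and cyclic AMP had the largest median ratio of the lists between sets 2 and 1. This list of 34 genes was chosen with earlier results of these data known, so its direction is no independent evidence. In set 2, 22 of 28 measured genes were higher and 0 lower than in set 1 (median log2 ratio 2.76). In set 3, 5 of 30 were higher and 17 lower than in set 2 (-1.63), and 16 of 26 were higher and 5 lower than in set 1 (1.40). The rule gene *Star* is among the 22 and among the 16. *Lhcgr*, which the receptor and luteal lists also hold, is among the 17 and among the 5 lower in set 3 than in set 1. Most measured genes of the list were thus higher in set 2 than in set 1, and most were lower in set 3 than in set 2.

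Ligands of the epidermal growth factor receptor were among the largest ratios. *Areg*, amphiregulin, was at 0.10, 13.5 and 0.25, 134-fold (109.9 to 166) higher in set 2 than in set 1 and 54-fold (42 to 70.7) lower in set 3 than in set 2. *Ereg*, epiregulin, was at 0.189, 15.4 and 4.24, 81.2-fold (70.1 to 94.7) higher in set 2 than in set 1. In thinned cells *Areg* had a UMI in 1.83%, 68.1% and 5.91% and *Ereg* in 4.23%, 73.5% and 44.8%, beside 0.256%, 13.6% and 0.323% and 0.256%, 14.1% and 1.94% of endothelial cells. In set 3 *Areg* was thus found in few cells, while *Ereg* was found in many.

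Signal brakes of the cyclic AMP pathway differed as well. *Pde10a*, a phosphodiesterase, was at 0.465, 14.3 and 0.721, 30.8-fold (27.9 to 33.9) higher in set 2 than in set 1, with a UMI in 7.48%, 95.4% and 11.8% of thinned cells, beside 4.87%, 25.1% and 1.29% of endothelial cells. *Rgs2*, a regulator of G protein signalling, was at 0.317, 9.64 and 7.62, 30.4-fold (27.1 to 34.3) higher, and stayed within 2-fold between sets 2 and 3. *Crem*, a cyclic AMP response modulator, was at 0.163, 4.62 and 0.544. The orphan nuclear receptors *Nr4a1* and *Nr4a3* were at 0.874, 5.74 and 0.413 and 0.0428, 2.3 and 0.0532. These genes were all highest in set 2, and of these 5 only *Rgs2* was within 2-fold of that level in set 3. *Tnfaip6*, a matrix protein of the expanding cumulus, was at 0.0334, 6.97 and 0.532, 209-fold (147 to 305) higher in set 2 than in set 1. *Ptgs2*, prostaglandin synthase, was at 0, 0.176 and 0.16, against 1.12 in granulosa-marker cells of set 2, with endothelial cells at 0.0172, 0.0821 and 0.011 and leukocytes at 0.0884, 0.33 and 0.392.

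Most measured genes of this list, chosen as known response genes, had higher set 2 than set 1 levels. The promoters of the listed genes were read from RefSeq, build GRCm38.p6, as 250 bases before to 50 bases after the transcription start. The cyclic AMP response element has the letters TGACGTCA and its shorter form TGACG, searched on both strands, the long form holding the short form on each strand. TGACG was found in 14 of the 27 listed genes with a window (51.9%), against 20.8% of 32851 windows of all genes. As the list was chosen for a response to cyclic AMP, this share can follow from the choice of genes and is no evidence about set 2. Of the 14, *Ptgs2*, *Il6*, *Vegfa* and *Timp1* were not called higher in set 2 than in set 1. A listed gene counted if any of its windows matched, whereas the share over all genes is per window. The 32851 windows belong to 27025 gene symbols, so the 2 shares are not in the same unit. TGACGTCA was found in *Areg* alone of the 27, with its first base 61 bases before the start, and in 1.79% of all windows. Of the 34 listed genes 7 were not searched here, *Ereg* and *Star* among them. Matches are letters only and no binding was measured. The windows of *Areg* (chr5:91139349-91139648, plus strand), *Nr4a3* (chr4:48045055-48045354, plus strand), *Nr4a1* (chr15:101266596-101266895, plus strand) and *Rgs2* (chr1:144004100-144004399, minus strand) follow, written 5′ to 3′ along the gene, as examples with 2 or more matches among genes highest in set 2. They were chosen after the values were seen. Capitals mark TGACG or its reverse complement.
Areg: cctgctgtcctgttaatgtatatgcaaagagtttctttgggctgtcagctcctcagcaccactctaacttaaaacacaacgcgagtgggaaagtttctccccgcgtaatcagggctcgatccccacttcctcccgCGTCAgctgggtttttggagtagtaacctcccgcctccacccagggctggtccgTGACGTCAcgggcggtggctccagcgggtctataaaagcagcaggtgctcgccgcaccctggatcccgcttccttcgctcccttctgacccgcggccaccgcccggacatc
Nr4a3: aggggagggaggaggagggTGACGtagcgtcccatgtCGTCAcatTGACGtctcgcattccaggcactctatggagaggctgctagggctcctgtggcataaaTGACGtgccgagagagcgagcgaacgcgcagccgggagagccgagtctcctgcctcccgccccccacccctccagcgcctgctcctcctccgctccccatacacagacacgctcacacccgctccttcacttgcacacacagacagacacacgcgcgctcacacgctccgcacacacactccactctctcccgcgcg
Nr4a1: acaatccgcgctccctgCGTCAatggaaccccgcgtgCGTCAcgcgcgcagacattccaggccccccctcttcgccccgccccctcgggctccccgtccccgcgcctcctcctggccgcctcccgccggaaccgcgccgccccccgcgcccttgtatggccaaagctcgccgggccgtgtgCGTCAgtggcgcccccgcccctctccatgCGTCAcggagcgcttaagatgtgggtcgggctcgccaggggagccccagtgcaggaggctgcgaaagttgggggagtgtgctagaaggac
Rgs2: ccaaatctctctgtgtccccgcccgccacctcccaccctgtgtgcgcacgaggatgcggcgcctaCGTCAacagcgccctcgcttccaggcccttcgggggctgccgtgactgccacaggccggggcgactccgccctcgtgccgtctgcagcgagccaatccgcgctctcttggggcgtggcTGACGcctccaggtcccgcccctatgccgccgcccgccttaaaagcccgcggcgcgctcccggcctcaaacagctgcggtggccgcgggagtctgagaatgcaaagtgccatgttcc

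In the same search TGACG stood in 3 of 17 steroid enzyme genes with a window (17.6%) and in 6 of 14 cholesterol synthesis genes (42.9%). These are again counts of genes, and the shares over all genes are per window. The sterol response element letters TCACCCCAC were found in 1 of the 14, *Hmgcs1*, 137 bases before the start, against 0.551% of all windows. *Hmgcs1*, the first committed enzyme of the mevalonate pathway, was at 5.73, 4.44 and 9.06. Its window (chr13:119690101-119690400, plus strand) is printed with these letters in capitals, since it is the one match of the list highest in set 3. AAGGTCA, the letters bound by NR5A receptors, stood in 0 of the 17 steroid enzyme genes, in 2 of the 14 cholesterol synthesis genes and in 4.72% of all windows. The 17 are those matched of 24 listed genes, and *Cyp17a1* and *Star* were not searched here.
Hmgcs1: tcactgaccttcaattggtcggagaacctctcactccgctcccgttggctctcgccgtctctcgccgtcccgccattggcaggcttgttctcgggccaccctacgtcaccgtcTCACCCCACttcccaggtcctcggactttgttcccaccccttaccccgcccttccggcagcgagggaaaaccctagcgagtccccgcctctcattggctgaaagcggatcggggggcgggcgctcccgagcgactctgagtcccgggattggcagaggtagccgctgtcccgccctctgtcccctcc

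Other cells of set 2 carried the same transcripts. *Areg* was at 0.0142, 11.1 and 0.116 and *Ereg* at 0.0155, 10.3 and 0.291 in granulosa-marker cells, and *Pde10a* at 0.0895, 14.7 and 0.307, close to the *Cyp17a1*-high cells in set 2. Stroma-marker cells were lower in set 2, at 2.14 for *Areg* and 1.78 for *Ereg*. *Rgs2* differed in its set 1 level, 0.317 against 4.04 in granulosa-marker cells, so that its set 2 to set 1 ratio was 5.41 (4.81 to 6.08) times as large in *Cyp17a1*-high cells. *Ereg* differed in set 3, where it was 35.5-fold lower than in set 2 in granulosa-marker cells and 3.62-fold (3.39 to 3.87) lower in *Cyp17a1*-high cells. The set 3 to set 2 ratio was 9.8 (8.89 to 10.8) times as large in the latter. For *Tnfaip6* the order was opposite, a ratio of ratios of 0.285 (0.239 to 0.341), with 0.532 in set 3 against 1.83 in granulosa-marker cells.

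**Figure D3:**
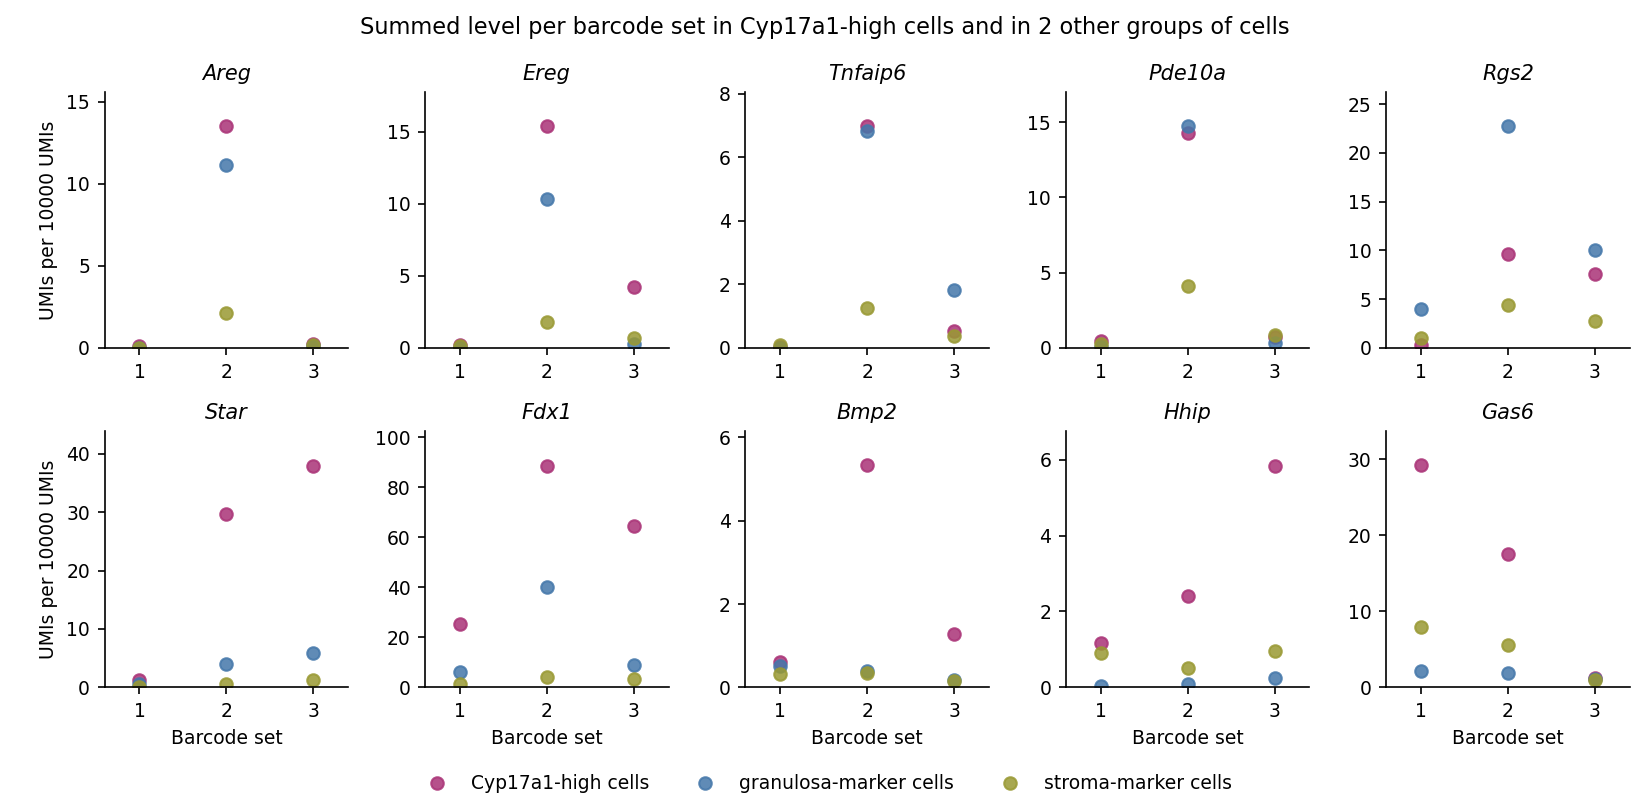
Summed UMIs per 10000 (y axis, linear, one scale per gene) of 10 genes by barcode set (x axis) in *Cyp17a1*-high, granulosa-marker and stroma-marker cells, one point per group and set. *Areg*, *Ereg*, *Tnfaip6* and *Pde10a* peak in set 2 in *Cyp17a1*-high and granulosa-marker cells alike. *Bmp2*, *Hhip* and the rule gene *Star* stand out in *Cyp17a1*-high cells among the groups shown. Cells with the companion genes and less *Cyp17a1* are not shown, so these genes are not thereby particular to *Cyp17a1*-high cells.

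Immediate early genes, which also answer tissue handling, leaned as the hCG and cyclic AMP list did in set 2 against set 1 and in set 3 against set 2. In set 3 against set 1 they leaned lower, where that list leaned higher. Their sum was 96.6, 159 and 77.2 in the *Cyp17a1*-high cells and 126, 171 and 137 in all other cells. Of 25 measured, 10 were higher and 0 lower in set 2 than in set 1 (median log2 ratio 0.91), 1 was higher and 14 lower in set 3 than in set 2 (-1.18), and 1 was higher and 5 lower in set 3 than in set 1 (-0.37). *Egr1* was at 8.2, 16.7 and 5.62. Heat shock genes summed to 111, 157 and 128, against 79.2, 94 and 104 elsewhere, with 3 higher and 0 lower of 13 in set 2 than in set 1, 1 higher and 4 lower in set 3 than in set 2, and 0 higher and 2 lower in set 3 than in set 1. The part of tissue handling in the set differences was not tested.

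Receptors were described next, with 3 of 18 higher and 2 lower in set 2 than in set 1, 4 of 19 higher and 7 lower in set 3 than in set 2, and 1 of 18 higher and 6 lower in set 3 than in set 1. Over all genes 6.25%, 18.4% and 8.86% were higher and 14.7%, 9% and 11.7% lower, so the 4 of 19 higher in set 3 than in set 2 and the 2 of 18 lower in set 2 than in set 1 lie near these shares. *Lhcgr* was at 10.4, 6.86 and 2.3, 2.99-fold (2.73 to 3.27) lower in set 3 than in set 2 and 4.52-fold (4.15 to 4.93) lower than in set 1. In thinned cells it had a UMI in 81.1% (78 to 83.9%), 61.1% (55.9 to 66.1%) and 45.8% (38.8 to 52.9%), beside 8.46%, 1.92% and 0.323% of endothelial cells. Granulosa-marker cells held less in every set (1.88, 0.956 and 0.267). The receptor through which hCG acts was thus lowest in set 3 in both groups. *Prlr*, the prolactin receptor, was at 7.1, 4.17 and 11.9, 2.86-fold (2.7 to 3.03) higher in set 3 than in set 2 (1.61-fold with the companion genes alone as gate). *Kit*, the receptor of KIT ligand from granulosa cells, was at 1.18, 0.388 and 0.0246, in set 3 below the 0.249 of endothelial cells, and 48.1-fold (22 to 131) lower there than in set 1. *Pgr*, the progesterone receptor, was highest in set 2 (0.183, 1.16 and 0.0901).

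Secreted factors were mixed, with 4 of 14 higher and 1 lower in set 2 than in set 1, 2 higher and 8 lower in set 3 than in set 2, and 5 higher and 5 lower in set 3 than in set 1. Over all genes 6.25%, 18.4% and 8.86% were higher and 14.7%, 9% and 11.7% lower. The rule gene *Insl3* was the 1 lower in set 2 than in set 1 and is among the lower ones in both set 3 comparisons. *Bmp2*, a bone morphogenetic protein, was at 0.609, 5.33 and 1.28, 8.75-fold (7.99 to 9.59) higher in set 2 than in set 1, while granulosa-marker cells were at 0.514, 0.403 and 0.177. Its set 2 to set 1 ratio was 11.1 (9.92 to 12.5) times that of granulosa-marker cells. Between sets 3 and 1 its ratio was 2.1 and turned to 0.953 when the companion genes alone were the gate. *Nppc*, the precursor of a natriuretic peptide of granulosa cells, was at 0.552, 1.88 and 0.0901, beside 0.199, 0.238 and 0.0366 in endothelial cells. The 39 highest cells of set 2 held 76.5% of its UMIs there. For *Fst*, also called higher in set 2 than in set 1, they held 78.8%. Whether such cells were doublets with granulosa cells was not tested. *Gas6*, a ligand of TAM receptors (named as one of the 15 largest differences), was at 29.2, 17.6 and 1.16, 25.1-fold (22.4 to 28.3) lower in set 3 than in set 1. In granulosa-marker cells it was at 2.18, 1.88 and 1.08, and in stroma-marker cells 7.89, 5.55 and 0.963.

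Transcription factors of steroid cells had 3 of 23 higher and 6 lower in set 2 than in set 1, 5 higher and 5 lower in set 3 than in set 2, and 3 of 22 higher and 6 lower in set 3 than in set 1. Beside these stand 6.25%, 18.4% and 8.86% of all genes higher and 14.7%, 9% and 11.7% lower. The 5 of 23 higher in set 3 than in set 2 lie near that share. *Nr5a1*, steroidogenic factor 1, was at 1.76, 0.756 and 0.684 and 2.33-fold (2.08 to 2.62) lower in set 2 than in set 1. *Gata4* was at 1.48, 0.497 and 0.409, 2.98-fold (2.59 to 3.45) lower. *Cebpb*, a factor that cyclic AMP induces, was at 4.79, 13.7 and 4.32, 2.85-fold (2.75 to 2.97) higher in set 2 than in set 1 and 3.17-fold (2.97 to 3.38) lower in set 3 than in set 2. *Cebpa* stood at 1.34, 1.96 and 0.438.

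The hedgehog pathway carries a signal from granulosa cells to theca cells, and *Hhip*, its decoy receptor, is a target of it. *Hhip* was at 1.16 (1.09 to 1.23), 2.42 (2.28 to 2.57) and 5.85 (5.55 to 6.16), with a UMI in 20.6%, 37% and 68.5% of thinned cells and 2.05%, 1.22% and 1.94% of endothelial cells. It was 5.05-fold (4.67 to 5.47) higher in set 3 than in set 1, while stroma-marker cells were at 0.916, 0.512 and 0.952, a ratio 4.86 (4.3 to 5.5) times smaller. The target *Gli1* stood at 0.0491, 0.0588 and 0.0082 and *Ptch1*, the receptor, at 0.574, 0.288 and 0.246, beside 0.504, 0.396 and 0.33 in endothelial cells. Of 6 hedgehog genes measured, 1 was higher and 0 lower in set 2 than in set 1, 1 and 2 in set 3 than in set 2, and 1 and 2 in set 3 than in set 1. The shares of all genes were 6.25%, 18.4% and 8.86% higher and 14.7%, 9% and 11.7% lower, and 6 genes are few to set beside them. *Hhip* was the one higher each time, and *Ptch1* was called lower in set 3 than in set 1. *Gli1* was under the minimum level of 0.1 and was not compared. With the companion genes alone as gate the set 2 to set 1 ratio of *Hhip* was 1.1, and that of set 3 to set 1 was 3.79.

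Retinoid genes had 2 of 9 higher and 4 lower in set 2 than in set 1, 3 of 9 higher and 1 lower in set 3 than in set 2, and 2 of 10 higher and 5 lower in set 3 than in set 1. The rule gene *Aldh1a1* is among these 5. Shares over all genes tested were 6.25%, 18.4% and 8.86% higher and 14.7%, 9% and 11.7% lower. *Cyp26b1*, which breaks down retinoic acid, was at 1.09, 0.292 and 0.147. Redox and glutathione genes had 2 of 22 higher and 0 lower in set 2 than in set 1, 0 and 4 in set 3 than in set 2, and 0 and 3 in set 3 than in set 1. Their median log2 ratio between sets 3 and 2 was -0.16, beside 0.28 over all genes tested. *Gsta2* and *Gsta4*, glutathione transferases, were at 4.62, 3.64 and 2.9 and 9.03, 7.17 and 6.94. Reads of such close paralogs may be divided by the alignment.

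Matrix genes had 4 of 27 higher and 0 lower in set 2 than in set 1, 5 of 29 higher and 6 lower in set 3 than in set 2, and 10 of 29 higher and 6 lower in set 3 than in set 1. Among all genes tested 6.25%, 18.4% and 8.86% were higher and 14.7%, 9% and 11.7% lower. The 5 of 29 higher in set 3 than in set 2 thus lie near the share of all genes. Basement membrane collagen *Col4a1*, which endothelial cells also make (14.4, 13.4 and 18.1), was at 3.6, 3.62 and 9.35, 2.58-fold (2.42 to 2.75) higher in set 3 than in set 2, and fibrillar collagen *Col1a2* at 8.19, 6.13 and 2.67, 2.3-fold (2.11 to 2.51) lower. *Timp1*, an inhibitor of matrix metalloproteinases, was at 1.02, 1.25 and 9.7, and endothelial cells were at 0.69, 0.753 and 4.69. *Plau*, urokinase, was at 0.275, 3.08 and 1.4, beside 0.354, 0.545 and 0.327 in leukocytes. *Col3a1*, another fibrillar collagen, was at 10.1, 11.2 and 8.34, within 2-fold between sets 3 and 2.

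Respiration genes differed little. Of 25 0 were higher or lower in set 2 than in set 1, 1 was higher in set 3 than in set 2, and 3 were lower in set 3 than in set 1. Glycolysis genes had 2 of 16 higher and 1 lower, 5 of 16 higher and 2 lower, and 3 of 14 higher and 0 lower in the same comparisons. The glycolysis medians between set 3 and sets 2 and 1 were log2 ratios of 0.52 and 0.53, beside 0.28 and -0.11 over all genes tested. *Pgk1*, phosphoglycerate kinase, was at 1.26, 1.24 and 3.76, beside 1.12, 0.894 and 1.81 in endothelial cells. Mitosis and replication genes summed to 4.64, 5.39 and 3.45 against 13, 10.2 and 10.8 in all other cells. Luteal markers had *Sfrp4*, a Wnt antagonist of luteal cells, at 3.07, 5.57 and 14.4, with 1 higher and 0 lower of 4, 2 and 2 of 5, and 2 and 1 of 5 in the 3 comparisons and *Lhcgr* lower in set 3 in the last 2.

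Marker lists of other cells were sparse here. Granulosa markers had 3 higher and 2 lower of 9 in set 2 than in set 1, 0 and 6 of 8 in set 3 than in set 2, and 0 and 6 of 9 in set 3 than in set 1. Stroma markers had 2 and 1 of 8, 1 and 3 of 7, and 1 and 3 of 6. Smooth muscle markers had *Tagln* higher of 2 in each, at 0.225, 0.518 and 1.22 and below endothelial cells (0.30, 1.22 and 3.02). Endothelial markers had 1 gene measured and none differing, and no myeloid, epithelial, oocyte or erythroid gene passed the level minimum.

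Among genes outside the lists, set 2 was marked by *Srxn1*, sulfiredoxin, at 0.0794, 5.34 and 0.225 and 67.2-fold (53.5 to 85.6) higher than in set 1. *Nefh*, a neurofilament subunit, was at 0.0428, 2.87 and 0.106, 67-fold (49.1 to 93.8) higher, and *F3*, tissue factor, at 0.0606, 3.2 and 0.086, 52.9-fold (40.7 to 70.0) higher. *Pthlh*, parathyroid hormone-related protein, was at 0.0115, 1.02 and 0.0082, and *Egln3*, an oxygen-sensing hydroxylase, at 0.0219, 1.14 and 0.217. Both lay at or below endothelial cells in set 1. *F3* was higher still in granulosa-marker cells of set 2 (10.0), *Nefh* lower (0.13). *Ly6m* had 0 UMIs in set 1 and 0.621 in set 2, at least 198-fold higher against a floor of 3 counts. Some of these genes were uneven, since the 39 highest of the 390 cells held all of the *Ly6m* UMIs of set 2 and 74.7% of those of *Pthlh*. Lower in set 2 than in set 1 were *Mid1ip1*, a lipogenesis regulator (4.37, 0.586 and 0.86), and the transcription factor *Osr2* (2.82, 0.529 and 0.688).

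Several genes were highest in set 3 and seen in a minority of its cells. *Ly6d*, a surface antigen, was at 0.401, 1.0 and 17.7, 17.7-fold (16 to 19.5) higher than in set 2. *Akr1b7*, an aldose reductase-like enzyme of steroid cells, was at 0.0178, 0.179 and 6.96, 38.9-fold (31.2 to 49.2) higher. *Il33*, an alarmin cytokine, was at 0.0021, 0.0109 and 1.77, 163-fold (69.2 to 504) higher, and *Serpinb2*, a plasminogen activator inhibitor, at 0, 0.0174 and 1.6, at least 511-fold higher than its 0 UMIs in set 1. *Adcyap1*, the neuropeptide PACAP, was at 0.0010, 0.192 and 1.7 and rested on 1 UMI in set 1, so its set 3 to set 1 ratio of 1630.1 had an interval of 291 to 64539.9. Endothelial cells of set 3 held 0.161, 0.0696, 0.033, 0.0256 and 0.011 of these 5 genes. *Fgl2*, a fibrinogen-like protein, was at 0.0773, 0.797 and 5.87 and less uneven, with 43.3% of its set 3 UMIs in the 20 highest cells. *Nts* and *Sult1e1*, also among the largest ratios, stood below endothelial cells in set 3, and the 20 highest cells held 80.1% and 77.3% of their UMIs. Lower in set 3 than in set 1 were *Trib2* (4.66, 1.13 and 0.368), *Tulp2* (1.59, 1.15 and 0.111) and *Cpa1* (0.778, 0.481 and 0.0614).

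The unevenness of genes was measured as the percent of a gene's UMIs that the 10% of cells with the most UMIs of it held, a measure chosen after values were seen. It was taken only for genes of the lists and genes among the largest ratios of a comparison. Over those at 0.5 UMIs per 10000 or more its median was 35.8%, 41.2% and 37.4% (281, 284 and 282 genes). The median over all genes of the table was not taken. In set 3 it was 19.5% for *Cyp11a1*, 86.4% for *Ly6d*, 91% for *Serpinb2*, 92.4% for *Il33* and 98.6% for *Adcyap1*. *Ly6d* reached 5 UMIs per 10000 in 5 of 709 cells of set 1, 8 of 370 of set 2 and 33 of 203 of set 3 (16.3%, 11.5 to 22.1%), counting cells with 3000 UMIs or more. The set 3 levels of these genes therefore describe a minority of its cells.

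These genes were not all carried by the same cells. In the 203 cells of set 3, *Akr1b7* reached 5 UMIs per 10000 in 49, *Serpinb2* in 21, *Cyp11b1* in 18, *Il33* in 17 and *Adcyap1* in 15. Of *Ly6d*-high cells 12 were also *Akr1b7*-high, 36.4% of the former and 24.5% of the latter, and 1 was also *Il33*-high. Over 7 such genes, with *Spp1* the last, 89 cells were high for 0, 81 for 1, 23 for 2 and 10 for 3. The 33 *Ly6d*-high cells had *Cyp17a1* at 32.9 and *Star* at 39.3, near the 36 and 38.1 of the 126 cells without *Ly6d*. Other genes differed between them: *Sfrp4* was at 8.23 against 18 and *Hhip* at 3.86 against 6.89.

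**Figure D4:**
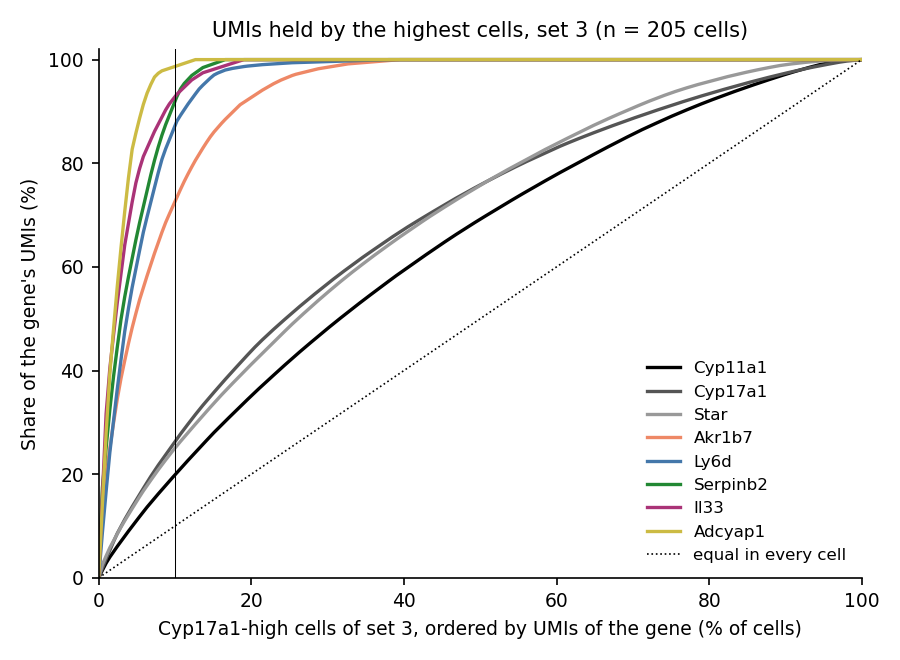
Share of a gene's UMIs (y axis, %) held by the set 3 *Cyp17a1*-high cells with the most UMIs of it (x axis, % of 205 cells), for 8 genes; the dotted line is an equal share in every cell and the vertical line marks the top 10% of cells. *Cyp11a1*, *Cyp17a1* and *Star* lie above the dotted line, with 19.5%, 25.8% and 24.6% of their UMIs in the top 10% of cells, and *Ly6d*, *Serpinb2*, *Il33* and *Adcyap1* rise within a few percent of cells.

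Within a set, cells with more *Cyp17a1* also held more of some other steroid genes. Spearman correlations were taken across cells with 3000 UMIs or more (709, 370 and 203), which share a library, and are a description, the weak ones given as values only. They were 0.36, 0.57 and 0.33 for *Cyp11a1*, 0.46, 0.16 and 0.32 for *Fdx1*, 0.22, 0.25 and 0.26 for *Lhcgr* and 0.01, 0.15 and 0.20 for *Hsd3b1*, and 0.15, 0.24 and -0.02 for depth. The mitochondrial chaperones *Hspe1* and *Hspd1* had 0.34, 0.29 and 0.39 and 0.35, 0.29 and 0.35. When set 1 was cut into 3 parts of 241, 241 and 240 cells by *Cyp17a1*, from lowest to highest, *Cyp11a1* was at 60.5, 71.7 and 90.7, *Fdx1* at 17, 23 and 34.5 and *Lhcgr* at 7.83, 10.4 and 12.5. *Hsd3b1* was at 40.4, 40.6 and 42.4 and *Aldh1a1* at 28.4, 28.7 and 25.6. Cut the same way, *Cyp11a1* was at 41.8, 59.1 and 81.6 in set 2 and 80.1, 96.4 and 116 in set 3, so it graded with *Cyp17a1* in every set, as *Lhcgr* did. *Fdx1* was at 84, 83.5 and 96.9 in set 2 and 51.7, 63.5 and 79.3 in set 3, and *Hsd3b1* at 28.4, 28.7 and 33.2 and 15.1, 17.3 and 19.6, so *Fdx1* graded in sets 1 and 3 and *Hsd3b1* most in set 3.

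**Figure D5:**
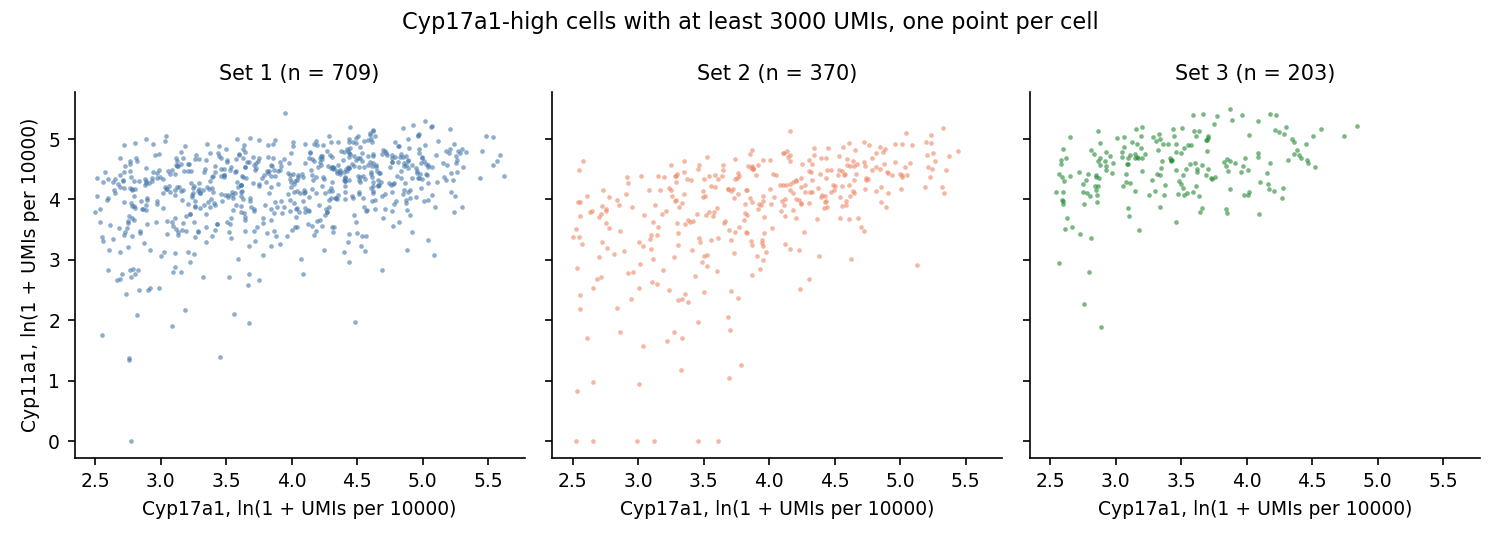
*Cyp11a1* (y axis) against *Cyp17a1* (x axis) in single *Cyp17a1*-high cells with 3000 UMIs or more, both as natural log of 1 plus UMIs per 10000, one panel per barcode set (709, 370 and 203 cells). Low *Cyp11a1* occurs mostly at low *Cyp17a1*, and Spearman correlations were 0.36, 0.57 and 0.33.

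Against all other cells of the table, 374 of 8329 genes (4.49%) were higher and 858 (10.3%) lower in the *Cyp17a1*-high cells, with a median log2 ratio of -0.23. Against low-*Cyp17a1* cells (below 2.5 with at least 3 of the 5 companion genes, 9283 cells, many with granulosa markers), 340 of 8187 (4.15%) were higher and 681 (8.32%) lower, with a median of -0.21. The cells compared with were the ones the rule left out, so these counts are a description. Of 18 steroid enzyme genes 10 were higher than in all other cells, among them the rule genes *Cyp17a1*, *Hsd3b1* and *Star*, and 3 lower (*Cyb5a*, *Hsd17b1*, *Cyp19a1*). Cholesterol synthesis had 11 of 19 higher and 0 lower (median log2 ratio 1.17), and uptake and storage genes 3 of 18 higher and 1 lower.

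Among the largest differences were the following genes. *Insl3*, a rule gene, stood at 0.983 against 0.0337 in all other cells, 29.1-fold (26.7 to 31.8) higher. *Fads2*, a fatty acid desaturase, was 16.1-fold (15.6 to 16.6) higher (5.08 against 0.315), *Plin1*, a coat protein of lipid droplets, 17.1-fold (15.8 to 18.5), *Gsta2* 15.5-fold (14.9 to 16), *Ephx1*, an epoxide hydrolase, 14.9-fold (14.3 to 15.6), *Aqp2*, a water channel, 21.5-fold (19.3 to 23.9), and *Sct*, secretin, 14.2-fold (13.2 to 15.2). Against the low-*Cyp17a1* cells *Fads2* was 9.99-fold (9.63 to 10.4) and *Ephx1* 11.2-fold (10.7 to 11.9) higher. When only the 2209 low-*Cyp17a1* cells with fewer than 2 of 6 granulosa genes were taken, a comparison added after the data were seen, 182 genes were higher and 351 lower. Of the 340 higher and 681 lower against all low-*Cyp17a1* cells, only 119 and 169 kept their call. Another 10 genes called in both comparisons were called in opposite directions. The 6 genes were *Serpine2*, *Amh*, *Fst*, *Gatm*, *Fshr* and *Nr5a2*, so that the choice of cells fixes part of this. Across sets, *Aqp2* was at 0.311, 0.545 and 1.37, *Plin1* at 1.19, 0.475 and 0.151, *Fads2* at 5.6, 4.79 and 3.59 and *Sct* at 1.14, 1.05 and 0.295. Lower were *Sult1e1*, the estrogen sulfotransferase (32.1-fold), *Nts*, neurotensin (19.1-fold), and *Cldn5*, an endothelial junction protein (18.9-fold). These folds pool the sets, which the chosen and the other cells hold in different shares. Within set 3, where *Sult1e1* and *Nts* were highest, *Sult1e1* was at 0.667 against 10.2 in all other cells and *Nts* at 1.83 against 14.7, and in set 1 both were at or near 0 in both groups.

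Other lists gave these counts against all other cells, where 4.49% of all genes tested were higher and 10.3% lower. The numbers higher among matrix, glycolysis, respiration and immediate early genes lie near that share. Receptors had 5 of 22 higher (*Lhcgr*, *Prlr*, *Esr1*, *Pgr*, *Kit*) and 7 lower, transcription factors 2 of 23 higher (*Nr5a1*, *Cebpa*) and 7 lower, secreted factors 2 of 17 higher (*Insl3* of the rule, *Bmp2*) and 7 lower, and hedgehog genes 2 of 8 higher (*Hhip*, *Cdon*) and 3 lower. Redox genes had 7 of 21 higher and 0 lower, retinoid genes 4 of 10 higher, with *Aldh1a1* of the rule among them, and 2 lower, matrix genes 2 of 31 higher and 12 lower, glycolysis 1 of 17 higher and 3 lower, respiration 1 of 25 higher, which was *Mgarp* of the rule, heat shock 2 of 13 higher (*Hspe1*, *Hspd1*), hCG and cyclic AMP genes 5 of 30 higher, with *Star* of the rule among them, and 7 lower, immediate early genes 1 of 25 higher, and luteal markers 3 of 5 higher and 1 lower. *Hspe1* was at 21.6, 35.5 and 34.8 against 6.74, 10.5 and 6.63 in granulosa-marker cells. Mitosis had 16 of 18 lower, granulosa markers 9 of 11, stroma markers 7 of 8, smooth muscle 4 of 4, endothelial 7 of 7 and myeloid 3 of 3, each with 0 higher. The rule left out cells with *Pecam1*, one of the 7 endothelial markers, or *Ptprc*, so the endothelial and myeloid counts follow from the choice of cells.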

How the data were processed

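Per the labels, whole ovaries were dissociated and sequenced as 1 droplet library per time point, and the submitters' processing notes name Cell Ranger, Seurat and the build mm10, without versions. The authors deposited 1 table of natural log values, ln(1 + UMIs per 10000), for 31776 cells and 24958 genes with all libraries together. Filters on cells before deposit are not given in the sources used here. Because each value is a whole number of molecules over a cell's total, UMIs were recovered, with a largest deviation of 1.3e-11 UMIs from a whole number, 240030587 UMIs in all and a median of 6347.5 per cell. Per-sample columns that could not be assigned numbered 0, and barcodes were grouped by their ending, since no source ties an ending to a library.

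The chosen cells were found by the rule given above. A level is a gene's summed UMIs per 10000 summed UMIs, with an exact Poisson interval. Ratios have exact conditional intervals, ratios of ratios a log-normal one, and shares exact binomial (Clopper-Pearson) intervals, all at 95% and for counting error only. A level of 0 was bounded at 3 counts. No p-value was computed. The cells and the 26 gene lists were chosen with earlier results of these data known. Genes were named if the rule read them, if a list held them at 0.5 UMIs per 10000 or more in any set or their absence was the point, or if they were among the 15 largest ratios in a direction with 0.5 or more in the higher group; predicted genes were counted only. Names given with counts of 5 or fewer, and those in the comparisons of uneven genes and promoters, were chosen after values were seen. No doublet caller was run. Alternatives were other *Cyp17a1* thresholds, more companion genes, a gate without *Cyp17a1*, leaving out shallow cells, the 10% of cells with the most UMIs or the most granulosa UMIs, the mean over cells, other totals and another level minimum. Python 3.11.15, numpy 2.4.6, scipy 1.17.1 and matplotlib 3.10.9 were used.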

Additional observations from a re-analysis of the deposited data

How the results depend on the processing

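Cells are not replicates, each set holds 1 library at most, and depth limits what is seen of genes below 0.1 UMIs per 10000. The share of *Cyp17a1*-high cells was 8.17%, 4.54% and 2.41% in sets 1, 2 and 3 with a threshold of 2, and 5.84%, 3.38% and 1.32% with a threshold of 3. Leaving out cells under 3000 UMIs gave 7.62% in set 1. With a level minimum of 0.02, which tests more genes, 606 were higher and 1909 lower than in all other cells, 579 and 1404 than in low-*Cyp17a1* cells, 780 and 2329 in set 2 than in set 1, 2271 and 1116 in set 3 than in set 2, and 1100 and 1705 in set 3 than in set 1. Against low-*Cyp17a1* cells with few granulosa genes, an alternative chosen after seeing the data, 182 genes were higher and 351 lower. Of the 340 higher and 681 lower against all low-*Cyp17a1* cells, 119 and 169 kept their call against these fewer cells. There *Inha* turned to 1.73, *Nr5a2* to 2.39, *Inhba* to 3.46, *Fst* to 5.96, *Ly6d* to 0.834 and *Il33* to 0.833; *Nr5a2* and *Fst* are among the genes that chose these comparison cells, so their turn follows at least in part from that choice. With the gate that leaves out *Cyp17a1*, 334 of the 472 genes higher and 686 of the 1113 lower in set 2 than in set 1 kept their call. Between sets 3 and 2, 956 of 1360 higher and 352 of 664 lower kept it, and between sets 3 and 1, 448 of 700 and 486 of 921. *Bmp2* turned to 0.953 and *Scarb1* to 0.722 in set 3 against set 1 with this gate. The cause of the other turns was not tested. Of 110 alternative values of the shares and counts, 91 stayed within their error or 1.5 times, which does not ask whether the same genes were called. Single genes were followed for a chosen group only, each where it was called in the main comparison, some by large ratios. Of their 1544 alternative values 1501 kept their direction and their side of the 2-fold limit, 35 kept the direction only and 8 reversed. These values therefore do not gauge how stable the calls of other genes are. No paired analysis was possible because no table ties a cell to a library and each time point has 1 library.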
